A study of Mus musculus with 10 samples.

Results

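The genes described here build and hold contacts between cells. They were chosen by a rule on the symbol that used no values, though with earlier results of these data known. The symbols are those of cadherins (Cdh), protocadherins (Pcdh) and the immunoglobulin adhesion molecules Cadm, Ncam, Icam, Jam and Alcam. Claudins (Cldn), connexins (Gja, Gjb, Gjc, Gjd) and the zonula occludens scaffolds (Tjp) complete the set. Of 15078 genes measured, 92 had such a symbol, and all are protein coding. With at least 10 normalized reads on average, 81 were tested, and 11 were too low for a test.

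Bulk RNA sequencing was performed on 10 libraries of skeletal stem and stromal cells sorted from mouse bone as CD45-Ter119-CD31-CD51+CD200+. The graft BM-MSC group (n = 4) came from the marrow of femurs of transgenic POSTN-CRE donors, placed under the skin of wild-type hosts and collected 5 months later after tamoxifen induction. These cells were also sorted for Tomato, which Cre recombinase under the Postn promoter switches on in any cell that uses Postn at induction and which descendants keep. The BM-MSC group (n = 3, marrow) and the P-SSC group (n = 3, periosteum, the sheath around bone) came from wild-type mice at steady state with no treatment. For the libraries numbered 2+4 of BM-MSC and 2+5 of P-SSC, the RNA came from a pair of mice. The labels give no age. Transplantation, tamoxifen and genotype go together in these groups, so their parts in a difference of the graft cannot be told apart. The comparisons ask how marrow cells that descend from Postn-expressing cells of the graft stand beside the marrow and the periosteal cells of bones at steady state.

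Classical cadherins bind the same cadherin on a neighbouring cell across the gap between cells, and catenins tie them to actin. Connexins form gap junction channels that pass small molecules and ions from cell to cell, and connexin 43 (Gja1) is the main connexin of bone-forming cells and of marrow stroma. Claudins seal tight junctions in epithelia and are anchored by zonula occludens proteins. Clustered protocadherins are drawn from arrays of alternative first exons, and neurons are known to use a different small set in each cell.

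Each library held 15415421 to 25223295 reads. Values are read counts normalized for library size, and the limit of 3 reads corresponds to 1.69 to 3.82 normalized reads. Graft libraries detected fewer genes (9308 to 11674) than steady-state libraries (12217 to 13341). A gene with at least 100 normalized reads in the rest of its group was at 0 in 0.898 to 8.78% of cases in the graft libraries, most often in graft BM-MSC 2, and in at most 0.363% in the others. A 0 in a single graft library was thus also found for genes that the other graft libraries read well. The 4 graft libraries and P-SSC 4 had high values for GC-rich genes and the other 5 low ones, so that for graft BM-MSCs against BM-MSCs this difference and the group cannot be told apart.

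All 8 stromal markers (Pdgfra, Pdgfrb, Prrx1, Itgav, Cd200, Lepr, Cxcl12, Postn) were found in every steady-state library. Postn had 0 reads in 3 of 4 graft libraries and 235 normalized reads in graft BM-MSC 4. Cxcl12 and Lepr were far higher in both marrow groups than in P-SSCs. Markers of other cells were present too. Red cell markers (7 of 7 detected in every BM-MSC library) summed to 58774 to 211332 in BM-MSCs against 1483 to 27755 in graft BM-MSCs. Cartilage markers summed to 33075 to 71665.5 in BM-MSCs, 656 to 3884 in graft BM-MSCs and 200.5 to 1693 in P-SSCs. All 5 were detected in every BM-MSC library and 1 or 2 of them in each graft library. Most of the BM-MSC sum was Col2a1 (54646, 66401 and 30631 normalized reads). Acan, Matn3 and Col9a1 were at 0 in all 4 graft libraries. Sox9 went the other way, with 114, 656, 932.5 and 318 in graft BM-MSCs against 65.8, 23.2 and 28.6 in BM-MSCs. The part of cartilage cells in the junction genes that were lower in the graft than in BM-MSCs was not tested. Muscle markers (6 of 6) and Schwann cell markers (6 of 6) were detected in every P-SSC library.

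Differences between groups were tested with limma across 13644 genes, with Benjamini-Hochberg adjustment at 0.05, and log2 changes are on the scale of log2(normalized read count + 1), which understates the change of low genes. A gene passed or was called by this fit of all 10 libraries unless another tool or setting is named. Between P-SSCs and BM-MSCs, 14 junction genes of 81 passed (17.3%, against 9.15% of all genes tested). Of these, 5 were higher in P-SSCs and 9 were lower, where 4.57% and 4.58% of all genes were. Between graft BM-MSCs and P-SSCs, 19 passed (23.5%, against 18.1% of all genes), 7 higher and 12 lower in the graft, where 6.08% and 12% of all genes were. Between graft BM-MSCs and BM-MSCs, 10 passed (12.3%, against 7.67% of all genes), all of them lower in the graft (5.06% of all genes were called lower and 2.61% higher), and 6 did without BM-MSC 3. With all 10 libraries fitted, none was called higher in the graft than in BM-MSCs by limma, edgeR or DESeq2, and 2 were higher at an unadjusted p under 0.05 by limma, 2 by edgeR and 4 by DESeq2. By limma, Cdh11 was called higher when only these groups were fitted and without P-SSC 4, and Cdh11 and Pcdh1 were without both graft BM-MSC 2 and P-SSC 4. In the order of these comparisons, the groups were free of overlap for 30, 25 and 19 of the 81 genes, against 30.9%, 26.6% and 25.0% of all genes. The comparisons share libraries, so their counts are not independent of each other.

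The median log2 change over the junction genes was -1.84 for graft BM-MSCs against P-SSCs, where the median of all genes tested was -0.47. Against BM-MSCs these medians were -1.79 and -0.53, and for P-SSCs against BM-MSCs they were -0.11 and 0.00. The median of all genes in the graft comparisons moved with the scaling, to -0.02 and -0.17 under quantile normalization and to 0.03 and -0.02 with the GC correction. The split of calls over all genes moved as well, from 830 higher and 1634 lower in graft BM-MSCs than in P-SSCs to 1247 and 1241 and to 1243 and 1088 under these scalings, and against BM-MSCs from 356 and 690 to 588 and 435 and to 619 and 392. The junction genes had 7 higher and 9 lower under the first and 8 and 10 under the second against P-SSCs, and 0 and 7 under both against BM-MSCs. Of the 92 genes, 27 had no read in any graft library (29.3%, against 11.1% of all genes), 13 had none in any BM-MSC library (14.1% against 6.59%) and 4 had none in any P-SSC library (4.35% against 7.64%). Only 16 were detected in all 10 libraries, the graft included (17.4%, against 48.4% of all genes). The genes set beside them were not matched by level, and the part of low levels in the zeros and medians was not tested. In bulk libraries, fewer cells of a type and less RNA per cell cannot be told apart.

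**Figure D1:**
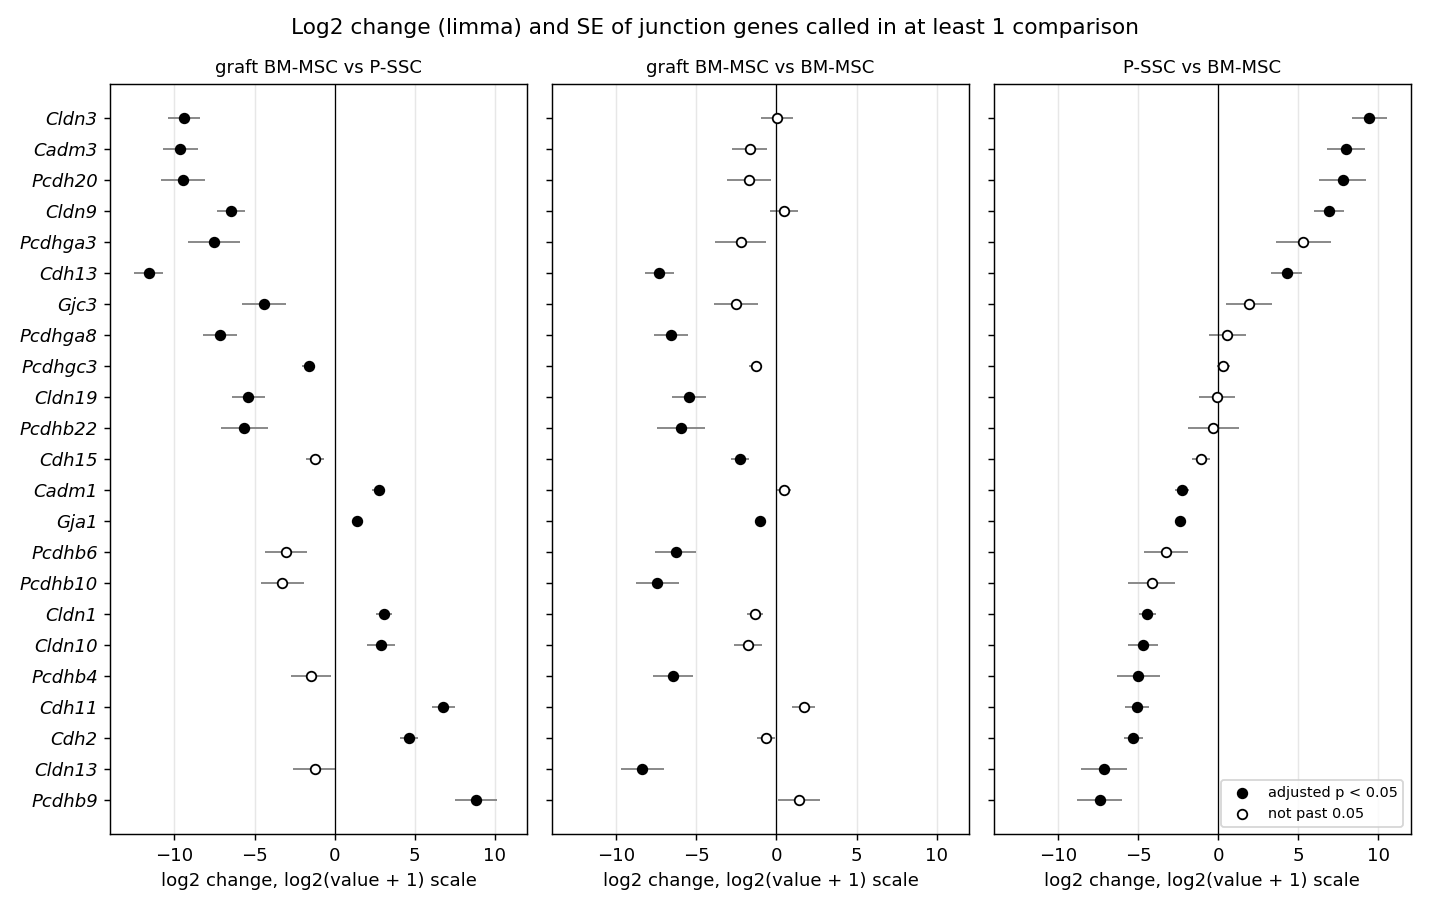
Log2 change on the log2(normalized read count + 1) scale (x axis, bars are the SE of limma) of 23 junction genes called in at least 1 comparison (y axis). Filled points passed an adjusted p of 0.05. No filled point lies right of 0 for graft BM-MSCs against BM-MSCs, while 7 do for graft BM-MSCs against P-SSCs and 5 for P-SSCs against BM-MSCs.

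Connexins were dominated by Gja1 (chr10:56377330-56402513, plus strand, GRCm38). Gja1 held 66.6 to 70.8% of the summed connexin level per kb of exon in P-SSCs, 84.7 to 96.4% in graft BM-MSCs and 85.4 to 96.2% in BM-MSCs. Its normalized read counts were 40716, 31156 and 32407 in BM-MSCs, 7337, 5777 and 6468 in P-SSCs, and 15269, 14159.5, 18299 and 22107 in graft BM-MSCs. The 3 groups did not overlap, with the graft between the others. P-SSCs had 5.33-fold less Gja1 than BM-MSCs (log2 change -2.41, SE 0.21, adjusted p = 6.03e-05). Graft BM-MSCs had 2.68-fold more than P-SSCs (log2 change 1.4, SE 0.19, adjusted p = 0.000622). Both differences passed under each of the 22 alternatives other than the replicate block, which the counts of alternatives given for the other genes also leave out. Graft BM-MSCs had 1.99-fold less than BM-MSCs (log2 change -1.0, SE 0.19, adjusted p = 0.0130), and this call was lost with quantile normalization, with a GC correction (adjusted p = 0.163), with the GC batch as a covariate and without BM-MSC 1.

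The other 6 connexins were low. Gjc1 (connexin 45), another gap junction subunit, had 104.5 to 255 normalized reads in BM-MSCs, 78.9 to 344 in P-SSCs and 406.5 to 921.5 in graft BM-MSCs, so that every graft library exceeded every steady-state library. No comparison passed (adjusted p = 0.0766 against P-SSCs), and it was called higher in the graft than in P-SSCs with the GC correction (adjusted p = 0.0419), without P-SSC 4 (0.0173) and without both P-SSC 4 and graft BM-MSC 2 (0.0187). Gja4 (connexin 37), a connexin of vessel walls, ranged from 0 to 800 and had its highest value in BM-MSC 2+4. Gjc3, a connexin of myelinating glia, had 4.18, 34.8 and 0 in BM-MSCs, 3.12, 25.5 and 89.2 in P-SSCs, and 0 in all 4 graft libraries. Graft BM-MSCs were at least 16-fold below P-SSCs (adjusted p = 0.0481), a call that 12 of 19 alternatives lost, among them leaving out any 1 graft library, BM-MSC 1 or P-SSC 2+5. Without P-SSC 4 the bound was 5.81.

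The Schwann cell markers moved with Gjc3. The list summed to 1147 to 8168 in P-SSCs, highest in P-SSC 4, to 1817 to 2090 in BM-MSCs and to 551 to 1561.5 in graft BM-MSCs. Sox10 and Erbb3 were at 0 in all 4 graft libraries, where S100b made up nearly the whole sum. The part of such cells in the values of Gjc3 was not tested.

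**Figure D2:**
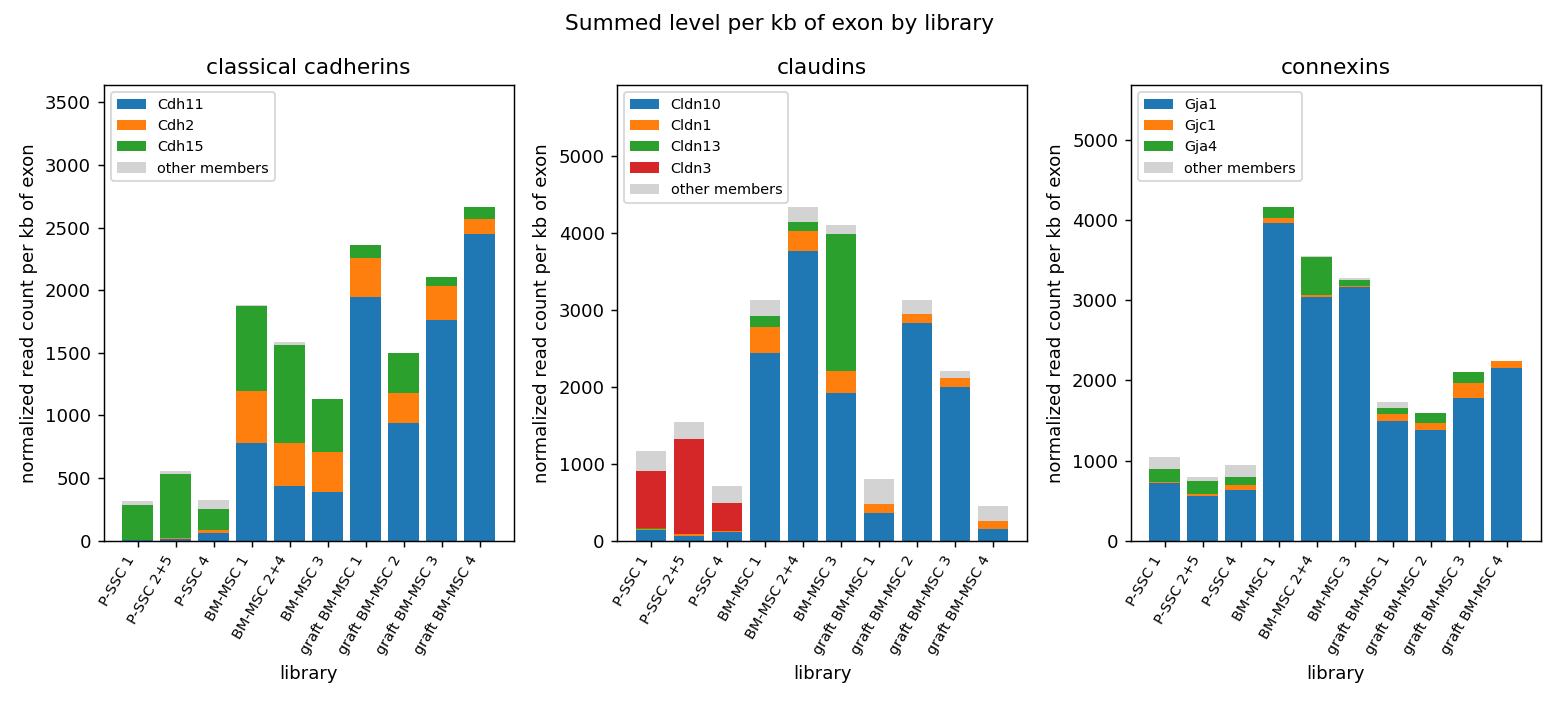
Summed normalized read count per kb of exon (y axis) of the classical cadherins, claudins and connexins in each of the 10 libraries (x axis), with the leading members in colour and the other members in grey. Gja1 fills most of each connexin bar, Cdh11 makes up 62.9 to 91.8% of the cadherin bars of graft BM-MSCs, and Cldn3 is the leading claudin in P-SSCs only.

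Of the classical cadherins, Cdh11 had the highest level per kb in all 4 graft libraries and in BM-MSC 1, and Cdh15 had it in the other 2 BM-MSC libraries and in all 3 P-SSC libraries. The summed level per kb was lowest in P-SSCs (313 to 558, against 1135 to 1880 in BM-MSCs and 1498 to 2666 in graft BM-MSCs). Cdh11 (cadherin 11, chr8:102632095-102785642, minus strand), the cadherin known from osteoblasts and mesenchyme, led in graft BM-MSCs. Its normalized read counts were 17325, 8383, 15697 and 21779 in graft BM-MSCs, 6967, 3902 and 3486.5 in BM-MSCs, and 44.7, 89.2 and 578 in P-SSCs. The groups did not overlap, and P-SSC 4 stood well above the other 2 periosteal libraries. Graft BM-MSCs exceeded P-SSCs 66.6-fold (log2 change 6.80, SE 0.73, adjusted p = 0.000141) and P-SSCs were 20.2-fold below BM-MSCs (log2 change -5.09, SE 0.78, adjusted p = 0.00157). Without P-SSC 4 these folds were 236 and 71.5.

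Within libraries of high GC-rich values, Cdh11 was 4.69 higher on the log2 scale in graft BM-MSCs than in P-SSC 4, and within those of low values the log2 change of P-SSCs 1 and 2+5 against BM-MSCs was -6.15. The difference of Cdh11 between graft BM-MSCs and BM-MSCs did not pass (log2 change 1.71, SE 0.73, adjusted p = 0.173). It passed without P-SSC 4 (adjusted p = 0.0257) and when only these groups were fitted (adjusted p = 0.0369). With the GC batch as a covariate its sign turned (log2 change -1.46, adjusted p = 0.709).

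Cdh2 (N-cadherin, chr18:16588877-16809246, minus strand), a cadherin of mesenchymal and neural cells, had 3332.5, 2728 and 2527 normalized reads in BM-MSCs, 28.1, 77.7 and 154 in P-SSCs, and 2537, 1944, 2169 and 959 in graft BM-MSCs. The marrow groups overlapped each other and lay above all P-SSC libraries. It was 33.1-fold lower in P-SSCs than in BM-MSCs (log2 change -5.33, SE 0.59, adjusted p = 0.000259) and 22.0-fold higher in graft BM-MSCs than in P-SSCs (log2 change 4.66, SE 0.55, adjusted p = 0.000253). Without P-SSC 4 these folds were 54.1 and 36.0. Between the marrow groups it did not pass. The calls for Cdh11 and Cdh2 against P-SSCs held under all 22 alternatives without the replicate block.

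Cdh15 (M-cadherin, chr8:122847966-122867397, plus strand), known from muscle satellite cells and myoblasts, followed another order. Its normalized read counts were 2216, 2558.5 and 1396 in BM-MSCs, 899.5, 1676 and 545 in P-SSCs, and 338, 1025, 239 and 327 in graft BM-MSCs. It made up 51.4 to 92.4% of the cadherin level per kb in P-SSCs and 3.49 to 21% in the graft. Graft BM-MSCs had 4.27-fold less than BM-MSCs (log2 change -2.29, SE 0.55, adjusted p = 0.0322). This call was lost under 11 of 22 alternatives, among them leaving out any 1 of graft BM-MSC 1, 3 or 4, any BM-MSC library or P-SSC 1. Without graft BM-MSC 2 the fold was 6.82. The 6 muscle markers summed to 753.5 to 1105 in BM-MSCs, 302 to 1923.5 in graft BM-MSCs and 1177 to 3076 in P-SSCs. Des (desmin) made up all of this sum in the graft and at least 746.6 of it in each BM-MSC library, while Myod1, Acta1 and Ckm were at 0 in both marrow groups and all 6 were read in P-SSCs. The part of muscle cells in the Cdh15 values was not tested.

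The other 8 classical cadherins were low. Cdh1 (E-cadherin), the cadherin of epithelia, had 103 normalized reads in P-SSC 4 and at most 1.73 in any other library. Cdh19, known from Schwann cell precursors, was read in P-SSC 1 (83.1) and P-SSC 4 (45.6) alone. Cdh5 (VE-cadherin), which defines endothelium, was too low for a test, at 2.08 to 58.6 in P-SSCs and 0 in both marrow groups. Cdh4 and Cdh6 were read in some steady-state libraries and in no graft library. Cdh9, Cdh18 and Cdh20 were too low for a test.

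T-cadherin (Cdh13, chr8:118283733-119324921, plus strand) is anchored to the membrane by a lipid, lacks the tail that binds catenins, and serves as a receptor for adiponectin. Its normalized read counts were 3712, 2915 and 2782 in P-SSCs, 303, 114 and 116 in BM-MSCs, and 0 in all 4 graft libraries. The groups did not overlap in any comparison. Graft BM-MSCs were at least 1276-fold below P-SSCs (log2 change -11.60, SE 0.91, adjusted p = 2.57e-05) and at least 72.3-fold below BM-MSCs (log2 change -7.32, SE 0.91, adjusted p = 0.00202), against a floor of 3 reads per library. Without BM-MSC 1 the second bound was 46.8.

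The first of these calls held under all 22 alternatives, and the second was lost with the GC batch as a covariate. P-SSCs exceeded BM-MSCs 17.7-fold (log2 change 4.28, SE 0.97, adjusted p = 0.0176), and this call was lost with a pseudocount of 0.1 and without any 1 of BM-MSC 2+4, BM-MSC 3 or the P-SSC libraries (highest adjusted p = 0.118). Without BM-MSC 1 it held, at 27.2-fold. Of the endothelial markers, Tek moved with Cdh13, at 3254 to 6869 in P-SSCs, 0 in the graft and at most 1.04 in BM-MSCs. Tie1 and Emcn, which also mark endothelium, were at 0 in P-SSCs and in the graft and were read in every BM-MSC library. Esam had 235, 334 and 157 normalized reads in P-SSCs, 210, 306 and 0 in BM-MSCs, and 128 in graft BM-MSC 4. It was at 0 in the other graft libraries. Egfl7, Vwf and Erg had at most 22.3 in P-SSCs and 65.6 to 148 in graft BM-MSC 4. The part of endothelial cells in the Cdh13 values was not tested.

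Of 9 claudins tested, 5 were called between P-SSCs and BM-MSCs (55.6%, against 9.15% of all genes tested). Cldn3 and Cldn9 were higher in P-SSCs and Cldn1, Cldn10 and Cldn13 lower, where 4.57% and 4.58% of all genes were. Cldn10 (chr14:118787908-118875489, plus strand), known for paracellular ion pores in kidney, led in BM-MSCs with 6331, 9776 and 4991 normalized reads. It had 355, 164 and 304 in P-SSCs, and 939.5, 7333, 5187 and 411 in graft BM-MSCs. The graft libraries fell into a pair near the BM-MSC level and a pair near the P-SSC level. P-SSCs were 25.6-fold below BM-MSCs (log2 change -4.69, SE 0.94, adjusted p = 0.00864), a call held by all 22 alternatives. The higher level in the graft than in P-SSCs (log2 change 2.90, SE 0.88, adjusted p = 0.0440) was lost under 13 of 22, among them without graft BM-MSC 2 or 3 and without any 1 steady-state library. It was 12.6-fold, and 7.94-fold without graft BM-MSC 2.

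Cldn1 (chr16:26356642-26371841, minus strand), the claudin of the skin barrier, had 1657, 1216 and 1384 normalized reads in BM-MSCs, 50.9, 144 and 34.9 in P-SSCs, and 581, 551.5, 581 and 498 in graft BM-MSCs. The 3 groups were separate, with the 4 graft libraries close to each other. P-SSCs were 18.5-fold below BM-MSCs (log2 change -4.45, SE 0.53, adjusted p = 0.000413), and graft BM-MSCs were 7.22-fold above P-SSCs (log2 change 3.10, SE 0.50, adjusted p = 0.00165). All 22 alternatives kept both calls. Without P-SSC 2+5 these folds were 33.1 and 12.9. Every graft library was also below the BM-MSC libraries (log2 change -1.35, SE 0.50, adjusted p = 0.127), a difference called by DESeq2 (adjusted p = 0.0452) and by limma when only these groups were fitted (adjusted p = 0.00420).

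Cldn3 (chr5:134986214-134987472, plus strand), a sealing claudin of epithelia, had the opposite pattern. It had 944, 1553 and 461 normalized reads in P-SSCs, 0, 1.05 and 0 in BM-MSCs, and 0, 0, 0 and 1.73 in graft BM-MSCs. P-SSCs were apart from both marrow groups, which together held 3 reads. The ratio of P-SSCs to BM-MSCs was 2879 (95% Poisson interval of the reads 517 to 113721.5, from 1 read in BM-MSCs, adjusted p = 0.000317) and the ratio of P-SSCs to graft BM-MSCs was 2518 (697 to 20795, from 2 reads, adjusted p = 0.000148). Both calls held under all 22 alternatives. Without BM-MSC 2+4, which held the single read, P-SSCs were at least 324-fold above BM-MSCs, and without graft BM-MSC 4 at least 408-fold above the graft. Leaving out a library without reads also moved these ratios, to 1879 without BM-MSC 3 (337 to 74229.5) and to 1646 without graft BM-MSC 1 (455.5 to 13588).

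Cldn9 (chr17:23682584-23684026, minus strand), a claudin of the inner ear, followed Cldn3. It had 189, 94.3 and 101 normalized reads in P-SSCs, 0 in all 3 BM-MSC libraries, and 0, 0, 0 and 2.59 in graft BM-MSCs. P-SSCs were at least 41.5-fold above BM-MSCs (adjusted p = 0.000761), and the ratio of P-SSCs to graft BM-MSCs was 218 (counting interval 74.6 to 1057, from 3 reads, adjusted p = 0.000569). Both calls were lost with edgeR. Without graft BM-MSC 4 P-SSCs were at least 53.0-fold above the graft, and without graft BM-MSC 1 the ratio was 142 (48.7 to 691). Epcam, the single epithelial marker in the table, was at 0 in all P-SSC libraries, where Cldn3 and Cldn9 were read.

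**Figure D3:**
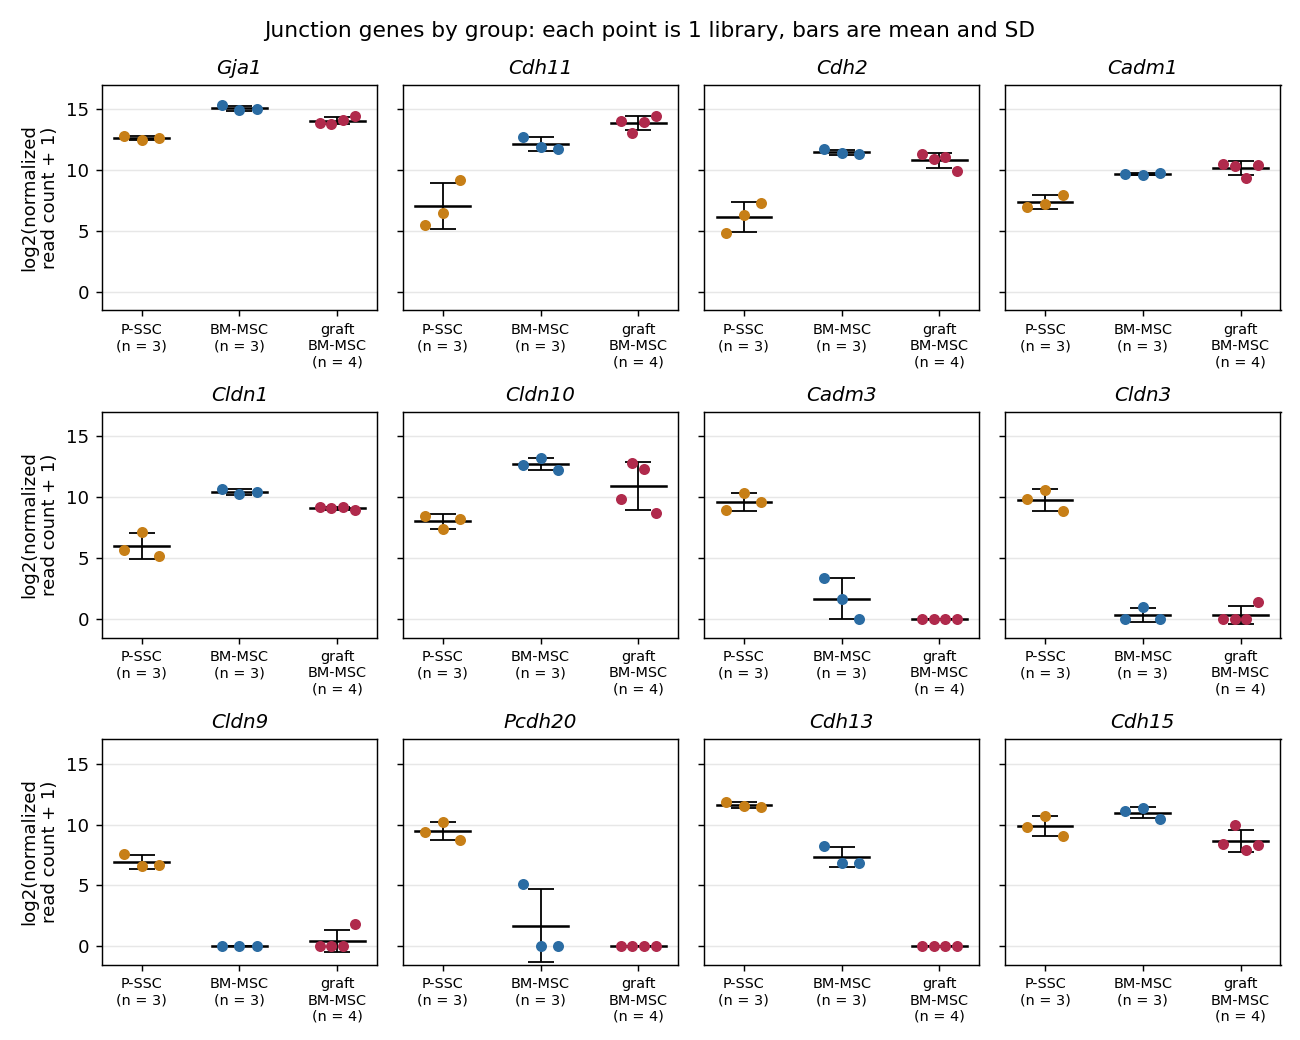
Log2(normalized read count + 1) (y axis) of 12 junction genes by group (x axis), with 1 point per library and bars for the mean and SD. Gja1, Cdh11, Cdh2, Cadm1, Cldn1 and Cldn10 lie higher in both marrow groups than in P-SSCs, Cadm3, Cldn3, Cldn9 and Pcdh20 lie higher in P-SSCs, and Cdh13 is at 0 in all 4 graft libraries.

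Cldn13, a rodent claudin known from blood-forming tissue and red cell precursors, had 152.5, 129 and 1903.5 normalized reads in BM-MSCs, 12.5, 0 and 0 in P-SSCs, and 0 in all 4 graft libraries. BM-MSC 3 was far above the other 2. Graft BM-MSCs were at least 296-fold below BM-MSCs (adjusted p = 0.00577) and P-SSCs 175-fold below (adjusted p = 0.00883), and edgeR lost both calls, while the GC batch as a covariate ended the first. Without BM-MSC 3 both calls stayed past the threshold, at least 57.2-fold for the graft and 33.8-fold for P-SSCs. Red cell markers were also highest in BM-MSC 3 (211332, against 71054 and 58774 in the other BM-MSC libraries) and summed to 201.5 to 1407 in P-SSCs. Slc4a1, the anion exchanger of red cells, was at 0 in all graft and P-SSC libraries and at 5409 in BM-MSC 3, while the haemoglobin genes were read in every graft library. The part of red cell precursors in the Cldn13 values was not tested.

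Cldn19, a claudin of kidney and Schwann cells, had 33.4, 36.9 and 65.1 normalized reads in BM-MSCs, 23.9, 20.4 and 134 in P-SSCs, and 0 in all 4 graft libraries. The graft was at least 24.1-fold below P-SSCs (adjusted p = 0.00496) and at least 18.4-fold below BM-MSCs (adjusted p = 0.0129). Without P-SSC 4 the first bound was 9.0. Quantile normalization ended both calls, and the second was also lost without BM-MSC 3, with edgeR and with the GC batch. Its highest value was in P-SSC 4, the library with the highest Schwann cell markers, whose part was not tested. Cldn12, an unusual claudin that lacks the motif for binding scaffolds, was read in every library at 222 to 799 without a call. Cldn15 and Cldn7 were also tested without a call, though Cldn7 was called higher in P-SSCs than in BM-MSCs when only these groups were fitted and, against both marrow groups, without graft BM-MSC 1, and Cldn2 and Cldn11 were too low for a test.

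Promoter sequences were available from RefSeq (GRCm38.p6) for 29 of the 92 genes. Those of 2 genes higher in marrow (Gja1, Cldn1) and 2 higher in periosteum (Cadm3, Cldn3) are shown, chosen after their values were seen among genes with an entry that were called between the steady-state groups. Each is given 5′ to 3′ on the gene's strand and covers the 250 bases before the start, without 2 bases for Cldn1. Capitals mark matches on either strand to the E-box CACCTG, the Runx core TGTGGT, the AP-1 motif TGANTCA, the TATA box TATAAA and the GC box GGGCGG.
Gja1, chr10:56377050-56377299, plus strand: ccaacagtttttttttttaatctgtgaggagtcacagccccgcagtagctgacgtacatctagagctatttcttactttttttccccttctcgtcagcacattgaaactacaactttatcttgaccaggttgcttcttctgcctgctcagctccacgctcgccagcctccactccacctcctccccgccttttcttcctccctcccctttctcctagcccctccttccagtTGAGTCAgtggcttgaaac
Cldn1, chr16:26371842-26372089, minus strand: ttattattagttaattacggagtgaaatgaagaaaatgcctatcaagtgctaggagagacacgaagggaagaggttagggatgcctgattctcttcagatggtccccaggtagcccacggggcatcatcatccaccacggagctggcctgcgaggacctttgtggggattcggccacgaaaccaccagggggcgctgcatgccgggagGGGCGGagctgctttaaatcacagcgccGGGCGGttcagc
Cadm3, chr1:173367696-173367945, minus strand: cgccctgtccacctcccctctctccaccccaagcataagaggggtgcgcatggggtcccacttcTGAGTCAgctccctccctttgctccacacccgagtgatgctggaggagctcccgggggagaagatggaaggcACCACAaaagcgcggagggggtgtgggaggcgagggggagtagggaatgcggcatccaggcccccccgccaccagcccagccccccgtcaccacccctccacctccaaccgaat
Cldn3, chr5:134985964-134986213, plus strand: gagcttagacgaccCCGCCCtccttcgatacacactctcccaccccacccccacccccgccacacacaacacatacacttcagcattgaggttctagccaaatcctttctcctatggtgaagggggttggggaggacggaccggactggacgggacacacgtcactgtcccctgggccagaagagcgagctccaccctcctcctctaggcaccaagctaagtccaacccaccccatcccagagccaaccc

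An AP-1 motif began 19 bases before the RefSeq start of Gja1 and 186 bases before that of Cadm3, so it occurred in a gene of each pattern. The RefSeq start of Gja1 lies upstream of the gene start given above. GC boxes lay 40 and 12 bases before the end of the Cldn1 window and, on the opposite strand, 236 before that of Cldn3. Cadm3 held a Runx core on the opposite strand 114 bases before its start. Among 32851 promoters of this length, 32.7% held a GC box, 17.2% the E-box, 14.0% the Runx core, 12.4% the TATA box and 6.75% the AP-1 motif. The GC content of the 4 promoters was 50% (Gja1), 55.6% (Cldn1), 66.8% (Cadm3) and 60.8% (Cldn3), against a median of 52.4%. A match is a description of the letters and not a site that was shown to be bound.

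Tjp1 (ZO-1), a zonula occludens protein that links claudins to actin, had 122, 219 and 13.8 normalized reads in BM-MSCs, 358, 28 and 437 in P-SSCs, and 651, 46.4, 467 and 478 in graft BM-MSCs. The groups overlapped, and no comparison passed.

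Of the Cadm genes, immunoglobulin proteins that bind each other across cells, 2 had opposite patterns. Cadm1 (chr9:47530173-47857637, plus strand) had 846, 762.5 and 879 normalized reads in BM-MSCs, 123, 152 and 256 in P-SSCs, and 1487.5, 1309, 642.5 and 1388 in graft BM-MSCs. Both marrow groups lay above P-SSCs. It was 4.69-fold lower in P-SSCs than in BM-MSCs (log2 change -2.29, SE 0.44, adjusted p = 0.00696) and 6.83-fold higher in graft BM-MSCs than in P-SSCs (log2 change 2.76, SE 0.41, adjusted p = 0.00102).

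Cadm3 (chr1:173333258-173367695, minus strand), best known from neurons, had 491, 1335 and 766 normalized reads in P-SSCs, 9.40, 2.11 and 0 in BM-MSCs, and 0 in all 4 graft libraries. P-SSCs were apart from both marrow groups. They exceeded BM-MSCs 225-fold (log2 change 7.96, SE 1.18, adjusted p = 0.00134), with a ratio of 848 without BM-MSC 1 (counting interval 235 to 6999.5), and graft BM-MSCs at least 351-fold (adjusted p = 0.000218). All 22 alternatives kept the calls of Cadm1 and Cadm3. Cadm4, which lines the contact of Schwann cells with axons, was read only in P-SSC 4 (110.5), the library with the highest Schwann cell markers.

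The other immunoglobulin adhesion genes tested had no call. Icam1, the ligand of leukocyte integrins, had 1503, 2413 and 1657 normalized reads in BM-MSCs, 3435, 1878 and 1051 in P-SSCs, and 2803, 3392, 1929.5 and 2559 in graft BM-MSCs. Ncam1 had 1280, 1341.5 and 895.5 in BM-MSCs, 853, 599 and 564 in P-SSCs, and 786, 639, 557 and 618 in graft BM-MSCs. Jam3, a junctional adhesion molecule, had 989, 807 and 783 in BM-MSCs, 572, 800 and 816 in P-SSCs, and 524, 168, 838 and 306 in graft BM-MSCs.

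Icam1, Ncam1 and Jam3 passed in no comparison by limma, and their groups overlapped except that Ncam1 was higher in every BM-MSC library than in any other. DESeq2 called Ncam1 lower in graft BM-MSCs than in BM-MSCs (adjusted p = 0.0415). Jam2, another junctional adhesion molecule, had 592, 495 and 314 normalized reads in BM-MSCs, 957, 588.5 and 926 in P-SSCs, and 0, 144, 272 and 198.5 in graft BM-MSCs, so that the graft lay below both other groups. It did not pass (adjusted p = 0.127 against P-SSCs and 0.270 against BM-MSCs), and without graft BM-MSC 1 it was called lower in the graft than in P-SSCs (adjusted p = 0.0155). Icam2 did not pass. Alcam, a ligand of the T cell receptor CD6, was too low for a test, with 28.2 normalized reads in BM-MSC 1, 0 in BM-MSC 2+4 and 3, 7.27, 3.82 and 1.94 in P-SSCs, and 0, 0, 3.02 and 6.04 in graft BM-MSCs.

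Non-clustered protocadherins are single genes on several chromosomes. Pcdh18 had the highest level per kb, with 1097, 941 and 1758 normalized reads in BM-MSCs, 2628, 1695.5 and 2086 in P-SSCs, and 659, 0.843, 1557 and 995 in graft BM-MSCs. The value of graft BM-MSC 2 is 1 read, in the library with the most zeros, and no comparison passed. Pcdh20 (chr14:88464743-88471396, minus strand) had 676, 1199 and 436 in P-SSCs, 34.5, 0 and 0 in BM-MSCs, and 0 in all 4 graft libraries.

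Pcdh20 was thus read at a high level in P-SSCs and in no more than 1 marrow library. P-SSCs exceeded BM-MSCs 67.1-fold (log2 change 7.75, SE 1.47, adjusted p = 0.00637), a call that edgeR lost, and at least 252-fold without BM-MSC 1. They exceeded graft BM-MSCs at least 313-fold (log2 change of the graft -9.47, SE 1.38, adjusted p = 0.000864), which all 22 alternatives kept. Pcdh1, Pcdh7, Pcdh9, Pcdh12 and Pcdh19 were tested without a call, though Pcdh19 was called lower in the graft than in P-SSCs without graft BM-MSC 4, and Pcdh11x was too low.

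The 43 clustered protocadherins lie side by side on chromosome 18. In BM-MSCs 33 to 38 of them were detected, in P-SSCs 26 to 40 and in graft BM-MSCs 14 to 24. Their summed level per kb was 1172 to 1528 in BM-MSCs, 666 to 1007 in P-SSCs and 931 to 1710 in graft BM-MSCs. Of all genes measured, 61.7 to 77.4% were detected in the graft libraries and 81.0 to 88.5% in the others, against 32.6 to 55.8% and 60.5 to 93.0% of the clustered protocadherins. Pcdhb9 alone made up 42.9 to 59.7% of the summed level in the graft libraries and at most 21.1% in the others. Of 40 tested, 5 passed in each comparison with the graft (12.5%, against 18.1% of all genes for P-SSCs and 7.67% for BM-MSCs) and 2 between the steady-state groups (5.0%, against 9.15%). The Pcdha and Pcdhg genes each share their last exons and overlap, so that the counting could split or lose their reads and their values are uncertain.

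Pcdhb9 (chr18:37400855-37403909, plus strand) had the highest level per kb. It had 1845, 1222, 1837 and 3116 normalized reads in graft BM-MSCs, 878, 831 and 516 in BM-MSCs, and 73.8, 0 and 0 in P-SSCs. The groups did not overlap, and each graft library was above each BM-MSC library without a call. Pcdhb9 was 81.5-fold higher in graft BM-MSCs than in P-SSCs (log2 change 8.81, SE 1.31, adjusted p = 0.00101), which all 22 alternatives kept. It was 30.2-fold lower in P-SSCs than in BM-MSCs (log2 change -7.42, SE 1.4, adjusted p = 0.00628), which edgeR lost. The reads of P-SSCs came from P-SSC 1 alone, and without it these folds were at least 596 and at least 220. Without P-SSC 2+5 or P-SSC 4 the first was 54.4.

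Pcdhb10 had 322, 190 and 84.8 normalized reads in BM-MSCs, 42.6, 0 and 19.4 in P-SSCs, and 0 in the graft. Pcdhb4 had 217, 91.8 and 34.5 in BM-MSCs, 20.8, 0 and 0 in P-SSCs, and 0 in the graft. Pcdhb6 had 43.9, 150 and 71.0 in BM-MSCs, 11.4, 0 and 42.7 in P-SSCs, and 0 in the graft. These neighbours of Pcdhb9 had no read in any of the 4 graft libraries.

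Graft BM-MSCs were at least 80.8-fold below BM-MSCs for Pcdhb10 (adjusted p = 0.0103), at least 46.6-fold for Pcdhb4 (adjusted p = 0.0130) and at least 35.9-fold for Pcdhb6 (adjusted p = 0.0173). The GC batch as a covariate and edgeR ended all 3 calls, and that of Pcdhb6 was also lost without BM-MSC 2+4 or 3. Pcdhb4 was 16.5-fold lower in P-SSCs than in BM-MSCs (adjusted p = 0.0415), which 16 of 21 alternatives lost, among them leaving out any 1 library except P-SSC 1. Without BM-MSC 1 the folds of Pcdhb4 were at least 25.7 and 9.12, and without P-SSC 1 the second was at least 34.0. Without BM-MSC 2+4 the bound of Pcdhb6 was 23.4.

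Pcdhb22 had 94.0, 266 and 129 normalized reads in BM-MSCs, 262, 99.4 and 63.0 in P-SSCs, and 0, 0, 32.2 and 0 in graft BM-MSCs. It was lower in the graft than in P-SSCs (adjusted p = 0.0245) and than in BM-MSCs (adjusted p = 0.0378). The first call was lost under 7 of 21 alternatives, among them without P-SSC 1 or 2+5, and the second under 16 of 21, including leaving out any 1 library except graft BM-MSC 3 and P-SSC 4. The graft was 17.6-fold below P-SSCs and 20.2-fold below BM-MSCs, and without graft BM-MSC 3 at least 62.2-fold and at least 71.8-fold. Without P-SSC 1 the first was 10.1-fold.

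Pcdhga8 had 139, 140 and 42.4 normalized reads in BM-MSCs, 226, 153 and 78.5 in P-SSCs, and 0 in the graft. It was at least 62.1-fold lower in the graft than in P-SSCs (adjusted p = 0.00096) and at least 43.6-fold lower than in BM-MSCs (adjusted p = 0.00583). All 21 alternatives with a value kept the first call, and the GC batch as a covariate ended the second. Pcdhga3 had 289, 275 and 78.5 in P-SSCs, 105.5, 0 and 0 in BM-MSCs and 0 in the graft, which was at least 87.1-fold below P-SSCs (adjusted p = 0.0083) except with edgeR or the GC batch.

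Pcdhgc3, a constitutive member expressed in many cells, was read in every library. It had 1543.5, 1109.5 and 985 normalized reads in P-SSCs, 836.5, 999 and 1047 in BM-MSCs, and 432, 363.5, 666 and 215 in graft BM-MSCs. All 4 graft values lay under the 6 steady-state values. The graft was 2.90-fold below P-SSCs (log2 change -1.62, SE 0.40, adjusted p = 0.0189), a call lost with the GC correction, with the GC batch, when only these groups were fitted and without P-SSC 1 or 2+5. The difference from BM-MSCs did not pass (log2 change -1.30, SE 0.40, adjusted p = 0.0809), but was called by DESeq2 (adjusted p = 0.0411) and without graft BM-MSC 3 (adjusted p = 0.0379).

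**Figure D4:**
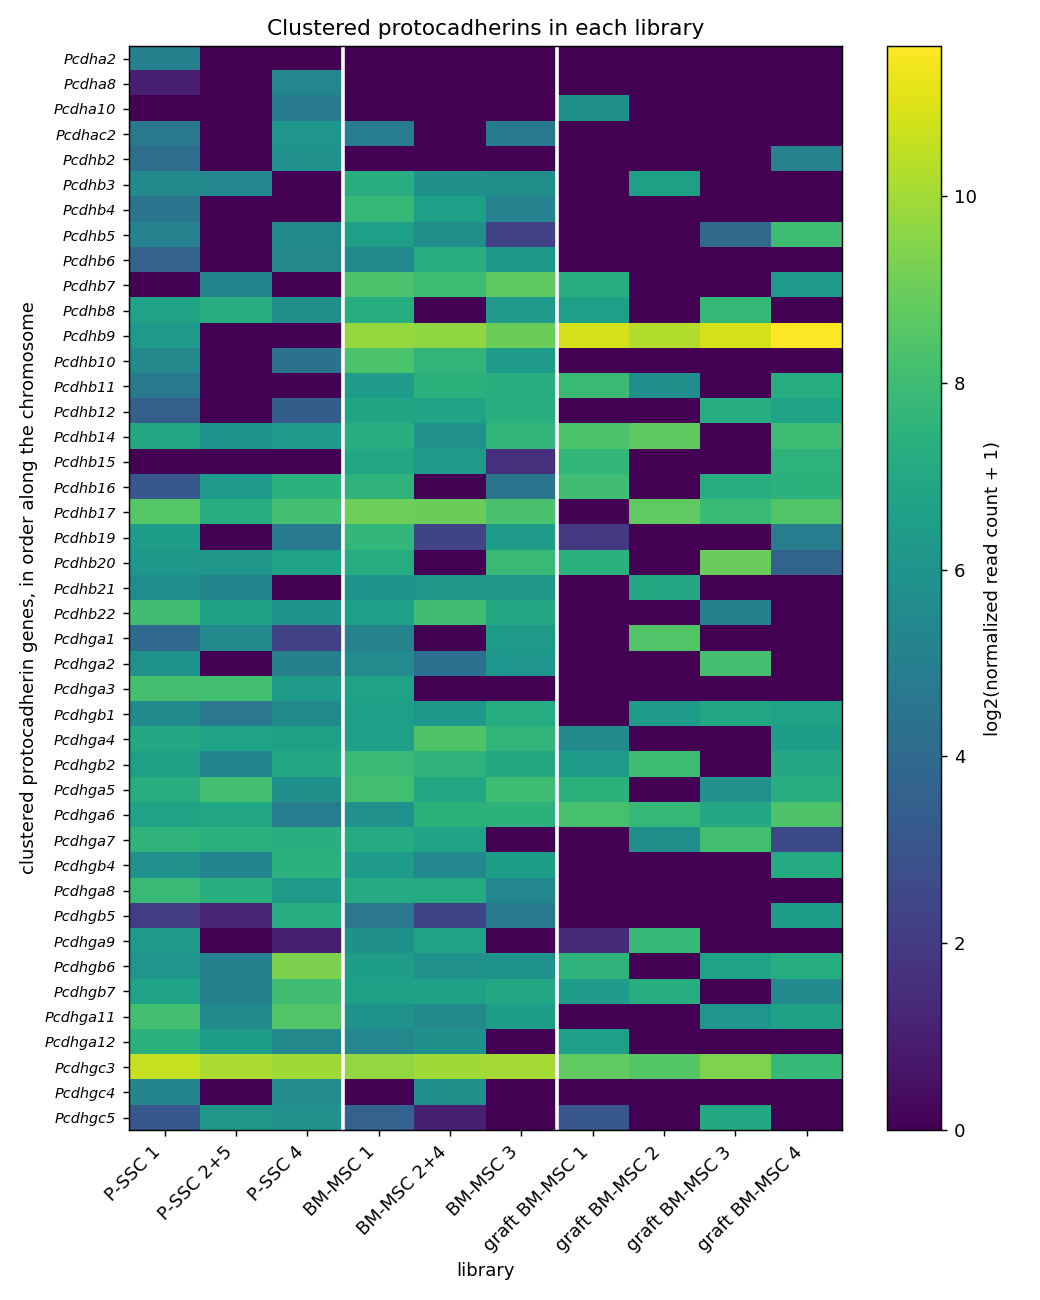
Log2(normalized read count + 1) (colour) of the 43 clustered protocadherins (rows, in order along the chromosome) in each library (columns, groups parted by white lines). Dark cells are genes at 0, of which the graft libraries hold most, with 14 to 24 of 43 genes detected. Pcdhb9 is bright in both marrow groups and at 0 in P-SSC 2+5 and P-SSC 4, while Pcdhgc3 is read in every library.

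For the partner genes from here on, only the fit of all 10 libraries is given, and their calls were not checked under the alternatives. Among partners of cadherins (18 tested), Ctnna1 (alpha-catenin), which ties the cadherin complex to actin, was lower in graft BM-MSCs than in both other groups. It had 1184, 879, 1430.0 and 1372 normalized reads in graft BM-MSCs, 3830, 3288 and 3171 in BM-MSCs, and 5831, 3965.5 and 4987 in P-SSCs (adjusted p = 0.00584 against BM-MSCs and 0.000281 against P-SSCs). Jup (plakoglobin), a catenin of adherens junctions and desmosomes, was also lower in the graft than in both (adjusted p = 0.00551 and 0.0163). Nectin2 and Fat1 were higher in graft BM-MSCs than in P-SSCs and lower in P-SSCs than in BM-MSCs. Clstn3 was lower in the graft than in P-SSCs, and Nectin3 was higher in the graft than in BM-MSCs (adjusted p = 0.03915). Ctnnb1 (beta-catenin) passed in no comparison.

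Of 15 tight junction partners, Clmp, an immunoglobulin protein of tight junctions, had 5219, 3525, 7636.5 and 5515 normalized reads in graft BM-MSCs, 635, 726 and 716 in BM-MSCs, and 317, 269 and 1349 in P-SSCs. It was higher in the graft than in BM-MSCs (log2 change 2.93, SE 0.51, adjusted p = 0.00831) and than in P-SSCs (log2 change 3.44, SE 0.51, adjusted p = 0.00102). The scaffold Magi2 was also higher in the graft than in both (adjusted p = 0.0414 against BM-MSCs). In the graft, Pard6g was higher and Patj lower than in P-SSCs. None of the 15 passed between P-SSCs and BM-MSCs by limma, where 9.15% of all genes did.

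Of 7 partners of connexins, Ccn3, a matricellular protein that binds connexin 43, had 24878, 16573 and 18815 normalized reads in P-SSCs, 15.7, 2.11 and 2.96 in BM-MSCs, and 65, 0, 0 and 1102 in graft BM-MSCs. Dbn1 (drebrin), which links connexin 43 to actin, had 6597 to 14679 in P-SSCs, 1020 to 1256 in BM-MSCs and 474 to 1408 in the graft. Both were higher in P-SSCs than in either marrow group, the groups in which Gja1 was higher. Tuba1a (alpha-tubulin) was higher in P-SSCs than in BM-MSCs. No partner of connexins passed between the marrow groups by limma, where 7.67% of all genes did.

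Among 18 other immunoglobulin adhesion genes and integrin receptors, Vcam1, which holds blood-forming cells to stroma, had 33975 to 52535 normalized reads in BM-MSCs, 32241 to 46953.5 in graft BM-MSCs, and 840 to 2422 in P-SSCs (adjusted p = 1.46e-05 for the graft and 1.89e-05 for BM-MSCs, each against P-SSCs). Chl1 had the same order of marrow and periosteum. Lsamp and Opcml, lipid-anchored proteins known from neurons, were read at 124 to 186 and 283 to 484 in P-SSCs, and in the marrow groups held no more than 1 read. Mcam, Bcam, Igsf8 and Thy1 were lower in the graft than in P-SSCs. Itgam, a receptor chain for Icam1 on myeloid cells, was lower in P-SSCs than in BM-MSCs, and the leukocyte markers (5669 to 19869 in BM-MSCs, 1789 to 16861 in graft BM-MSCs, 545 to 2374 in P-SSCs) moved with it. None of the 18 passed between graft BM-MSCs and BM-MSCs by limma, where 7.67% of all genes did. In partner lists this short, a count of 0 says little.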

How the data were processed

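Sequenced RNA came from 3 P-SSC libraries, 3 BM-MSC libraries and 4 libraries of graft BM-MSC. The deposited values are a signal, for which the authors scaled the count of reads of each gene by a factor of its library. Per the submitters' processing notes, cutadapt 1.15, STAR 2.5, featureCounts (Subread 1.4.6), DESeq2 1.26.0 and the build GRCm39 were used, while the study's methods name GRCm38, so the build is not settled. The strand setting is not given in the sources used here, so a gene and its antisense partner, or near-identical copies, may share reads. Per the labels, the 6 steady-state libraries were taken over from an earlier set of samples, so that set and the graft cannot be told apart in the graft comparisons. Groups and replicates were taken from the sample titles, and no column was left over.

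Every value was a whole multiple of the value of 1 read, to within 0.01 reads (100% of values), which gave the total reads of each library. Libraries of a group differed by more than counting noise (chi-square per degree of freedom at least 72.2). p-values measure the spread between the libraries of a group. Floors of 3 reads per library and 95% intervals cover counting error only. A fold is "at least" a value where all libraries of the lower group were at 0, and is then computed against the floor. Where the lower group held 1 to 3 reads, a ratio with an exact Poisson interval is given.

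Tests covered the 13644 of 15078 genes whose mean reached 10. limma 3.58.1 in R 4.3.3 was fitted to log2(value + 1) of all 10 libraries, with 1 mean per group, a trend in the variance and a two-sided test. The members and gene lists were chosen with earlier results of these data known. Values in every library are given for members called in at least 1 comparison and for the member of each family with the highest mean per kb of exon. Gene positions and exon lengths came from GENCODE M21 on GRCm38, which held 15052 of the IDs and all 92 members, and promoters came from RefSeq.

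Other settings tried were pseudocounts of 0.1 and 5, all genes unfiltered, a minimum mean of 100, quantile normalization, median centring, a GC correction (loess, span 0.3), the GC batch as a covariate, the 2 groups alone, each library left out, a replicate block, and edgeR 4.0.16 (quasi-likelihood, TMM) and DESeq2 1.42.0 on the recovered reads. Leaving out both graft BM-MSC 2 and P-SSC 4 was added after seeing the data. The fits were tested on simulated data. Values of a few genes are not reported here.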

Additional observations from a re-analysis of the deposited data

Results flagged for a closer look

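In the graft group, 18 of the genes named had values that differed among the 4 libraries, and in 6 of them 1 library stood apart from the other 3 by Dixon's test on the log2 scale. For values not tied at 0, chance alone would do so in about 1 of 20 such groups. Cadm1 was lowest in graft BM-MSC 3 (642.5 normalized reads), and Tjp1 (46.4) and Pcdh18 (0.843) were lowest in graft BM-MSC 2, the library with the most genes at 0. Cldn3 (1.73) and Cldn9 (2.59) were read in graft BM-MSC 4 alone, and Pcdhb22 (32.2) in graft BM-MSC 3 alone. With the other graft libraries at 0, any value above 0 is flagged, so for these genes the test shows nothing further. The Cldn3 value was under the limit of 3 reads.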

How the results depend on the processing

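Of 992 results of single genes under alternatives, 834 kept their direction and side of the threshold, 154 lost a call (40 of these with the replicate block, 114 otherwise), 3 gained one and 1 turned its sign. That 1 was Cdh11 in graft BM-MSCs against BM-MSCs with the GC batch as a covariate (-1.46). Neither marrow group was split between the GC batches, so this fit took the batch term from P-SSC 4 against P-SSC 1 and P-SSC 2+5 alone. For graft BM-MSCs against P-SSCs, 19 junction genes were called, and 12 were with a mean of at least 100, where fewer genes were tested. For graft BM-MSCs against BM-MSCs, 10 were called, with 4 under that filter, 3 with edgeR and 2 with the GC batch, none of them shared with the 10. For P-SSCs against BM-MSCs, 14 were called, and 9 with edgeR. The causes of the changes with edgeR and the GC batch were not tested. Leaving out 1 library gave 16 to 22, 6 to 11 and 12 to 16 calls.

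Libraries with the same number came from different mice in the graft and at steady state, no label ties BM-MSC 1 to P-SSC 1, and these libraries shared only a number. Across such pairs, the deviations from the group means did not move together (correlations -0.02 to 0.03). With the replicate block, limma called 3, 0 and 0 genes, and at an unadjusted p under 0.05 it had 7 higher and 20 lower, 1 higher and 17 lower, and 8 higher and 11 lower. edgeR without the block called 15, 3 and 9, and DESeq2 21, 15 and 14. Over all genes, 2464, 1046 and 1248 were called. These became 1531, 316 and 619 with edgeR, 269, 3 and 54 with the block, and 1081 and 40 with the GC batch in the graft comparisons. Graft BM-MSCs against P-SSCs had 1513 without P-SSC 1. Graft BM-MSCs against BM-MSCs had 1948 with DESeq2, 413 to 526 without 1 BM-MSC library, 1587 without P-SSC 4 and 1856 without it and graft BM-MSC 2. Genes under 3 reads in a library could not be told from 0 at this depth.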
